A study of Homo sapiens with 8 samples.

Results

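The genes described here are AFAP1 and 8 genes near it on the short arm of chromosome 4, at 4p16: SORCS2, GRPEL1, TADA2B, TBC1D14 and KIAA0232 at lower positions, and SH3TC1, ACOX3 and TRMT44 at higher ones. They were taken by symbol, and all 9 were found among the 17056 genes of the table. AFAP1 was chosen as the gene opposite AFAP1-AS1, the antisense RNA whose level the study raised and lowered; AFAP1-AS1 is a long transcript that codes for no protein. The cells were A549, an established human lung adenocarcinoma line, and gene expression was read by RNA-seq of total RNA in 8 libraries, 2 in each of 4 groups. The vector group was the vector control, and the OE group overexpressed AFAP1-AS1. The ASO group had AFAP1-AS1 knocked down, and the ASONC group was its negative control. ASO commonly stands for antisense oligonucleotide. The labels do not give the oligonucleotide, the construct, the dose, the time or whether the lines were clones, and no other agent or allele is named. They also name no separate cultures behind the replicates. P-values therefore measure only how much these libraries differ, which may be technical.

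AFAP1 is an adaptor that binds SRC-family kinases and crosslinks actin filaments, and it links kinase signalling to stress fibres and cell shape. An antisense RNA can act on its sense partner by pairing with the transcript, through transcription of the shared stretch, or not at all, and some long non-coding RNAs also bear on other genes of the same neighbourhood. The neighbours read here have unrelated roles: a sorting receptor (SORCS2), a mitochondrial import co-chaperone (GRPEL1), a histone acetylation adaptor (TADA2B), an autophagy regulator (TBC1D14), a peroxisomal oxidase (ACOX3), a tRNA methyltransferase (TRMT44), an SH3 and tetratricopeptide repeat protein (SH3TC1) and KIAA0232.

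In the GENCODE 29 annotation of GRCh38, AFAP1 lies on the minus strand at chr4:7758714-7939926, and AFAP1-AS1 on the plus strand at chr4:7754090-7778928. The body of the antisense gene lies for 20215 bases within that of AFAP1. Only 523 exonic bases are shared, in 3 stretches (chr4:7772820-7773010, chr4:7774739-7774903 and chr4:7778762-7778928). They make up 5.21% of the 10036 exonic bases of AFAP1 and 7.7% of the 6795 of AFAP1-AS1. How the counting treated strand is not given in these sources, so reads from these bases cannot be assigned to either gene. The antisense RNA itself was not analysed here, and its level gives no check of the labels.

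The promoter stretches below cover AFAP1, SH3TC1 and the pair ACOX3 and TRMT44. AFAP1 is shown because its OE values lay above its vector values, a difference that the main test described below did not call. SH3TC1 was among the neighbours that differed most between groups, and ACOX3 and TRMT44 share a start region. The stretches are the 250 bases before a start, or the gap between a pair of starts. They come from RefSeq on GRCh38.p14, 5′ to 3′ on the strand of the gene. Capitals mark motifs searched on both strands. These are the GC box, spelled GGGCGG, the box named for its letters CCAAT, and the cAMP response element, spelled TGACGTCA. In these windows 2 GC boxes before the upstream AFAP1 start share a base, and motifs of different kinds do not overlap. A window was found for 7 of the 9 genes (14 windows), with none for GRPEL1 and SORCS2. The upstream AFAP1 start is chr4:7939862-7940111 and the inner start chr4:7872309-7872558, both on the minus strand. The SH3TC1 window is chr4:8181822-8182071, and the gap between ACOX3 and TRMT44 is chr4:8440724-8440776, both written on the plus strand.
AFAP1 upstream start: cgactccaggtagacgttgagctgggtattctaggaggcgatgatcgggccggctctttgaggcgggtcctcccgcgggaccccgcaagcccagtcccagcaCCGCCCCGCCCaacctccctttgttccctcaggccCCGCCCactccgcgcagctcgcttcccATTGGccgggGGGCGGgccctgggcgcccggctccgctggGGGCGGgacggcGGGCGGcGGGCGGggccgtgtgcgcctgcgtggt
AFAP1 inner start: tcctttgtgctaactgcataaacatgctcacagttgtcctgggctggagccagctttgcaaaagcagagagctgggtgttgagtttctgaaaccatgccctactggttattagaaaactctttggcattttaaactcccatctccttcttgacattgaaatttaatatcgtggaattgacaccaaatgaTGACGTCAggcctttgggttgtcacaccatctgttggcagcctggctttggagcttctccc
SH3TC1 start: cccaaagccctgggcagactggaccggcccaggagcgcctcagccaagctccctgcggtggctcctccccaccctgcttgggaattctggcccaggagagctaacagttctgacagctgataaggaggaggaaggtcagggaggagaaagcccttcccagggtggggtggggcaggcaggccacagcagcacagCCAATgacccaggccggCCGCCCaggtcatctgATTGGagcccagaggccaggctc
ACOX3-TRMT44 gap: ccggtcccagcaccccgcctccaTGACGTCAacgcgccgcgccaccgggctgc

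The AFAP1 starts, 67.6 kb apart, had little in common. The upstream window held 29 CpG dinucleotides, 7 GC boxes and 1 CCAAT box at a GC content of 74.8%. The inner window held 2 CpG, 1 cAMP response element and a GC content of 45.6%, against medians of 11 CpG and 58.0% over all 35116 promoter windows. The SH3TC1 window printed, at its first start, held 5 CpG, 1 GC box and 2 CCAAT boxes, and the window around a further start at 8199290 held 12 CpG, 3 GC boxes and 0 CCAAT boxes. A RefSeq start of ACOX3 and that of TRMT44 lie 53 bases apart on opposite strands, and the gap held 1 cAMP response element. ACOX3 has a further start at 8428448, whose window held 31 CpG, 3 GC boxes and 1 cAMP response element. A GC box was found in 42.6% of all windows, a CCAAT box in 32.0% and the cAMP response element in 1.6%. A match is a description of the letters only, and values per gene do not tell which start was used.

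The libraries held between 33662221 and 37508996 reads, recovered as whole numbers from the steps of the FPKM values (fragments scaled by transcript length and library size). The ASONC libraries stood apart in the genes they registered: 1435 and 1341 genes were at 0, against 2205 to 2327 in the other 6. The FPKM of all genes summed to between 371927 and 379733 in the vector and OE libraries and to between 421591 and 437924 in the ASONC and ASO libraries. The epithelial keratins KRT8, KRT18 and KRT7 were between 956 and 1339 FPKM, and AKR1B10, typical of A549, between 1177 and 1522. EPCAM, the epithelial adhesion molecule, did not pass 0.862 FPKM in any library, and the cadherin CDH1 averaged 3.82 in vector and 4.02 in OE but 1.14 in ASONC and 1.59 in ASO. Of the immune markers, PTPRC and LYZ did not pass 0.075 FPKM. CD68, a lysosomal gene that many cells express, made up nearly all of that list, whose sum was 48.8 to 50.2 in vector, 49.2 to 50.3 in OE, 89.3 to 90.1 in ASONC and 64.1 to 65.4 in ASO. The sum of the 5 fibroblast markers was at most 0.772 in vector and OE and between 2.01 and 2.75 in ASONC and ASO, mostly from COL1A1 (mean 0.554 in vector and 2.45 in ASONC), with DCN at or near 0. The sum of the 4 endothelial markers went the other way, from 1.38 to 1.79 in vector and 1.01 to 1.26 in OE to at most 0.338 in ASONC and ASO. The part of these differences in the results on the 9 genes was not tested.

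The 9 genes covered a wide range of levels per length. GRPEL1 averaged 22.8 FPKM over the 8 libraries (percentile 83.9 of all genes), TBC1D14 16.6 (79.0) and AFAP1 10.9 (71.7). TADA2B averaged 4.43 and KIAA0232 3.97. ACOX3 (1.77) and TRMT44 (1.25) lay just above the minimum mean of 1 FPKM that the main test required, while SH3TC1 (0.855) and SORCS2 (0.562) lay under it. The main test, limma on log2(FPKM + 1), therefore covered 7 of the 9 genes and 10648 genes in all. SH3TC1 and SORCS2 were tested with limma's voom on the recovered reads, over 13172 genes whose reads averaged 10 or more, a test chosen after seeing the data. The threshold for a call was 0.05 on the p adjusted by Benjamini and Hochberg over every gene tested. In bulk RNA, fewer cells that express a gene and less RNA per cell cannot be told apart.

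**Figure D1:**
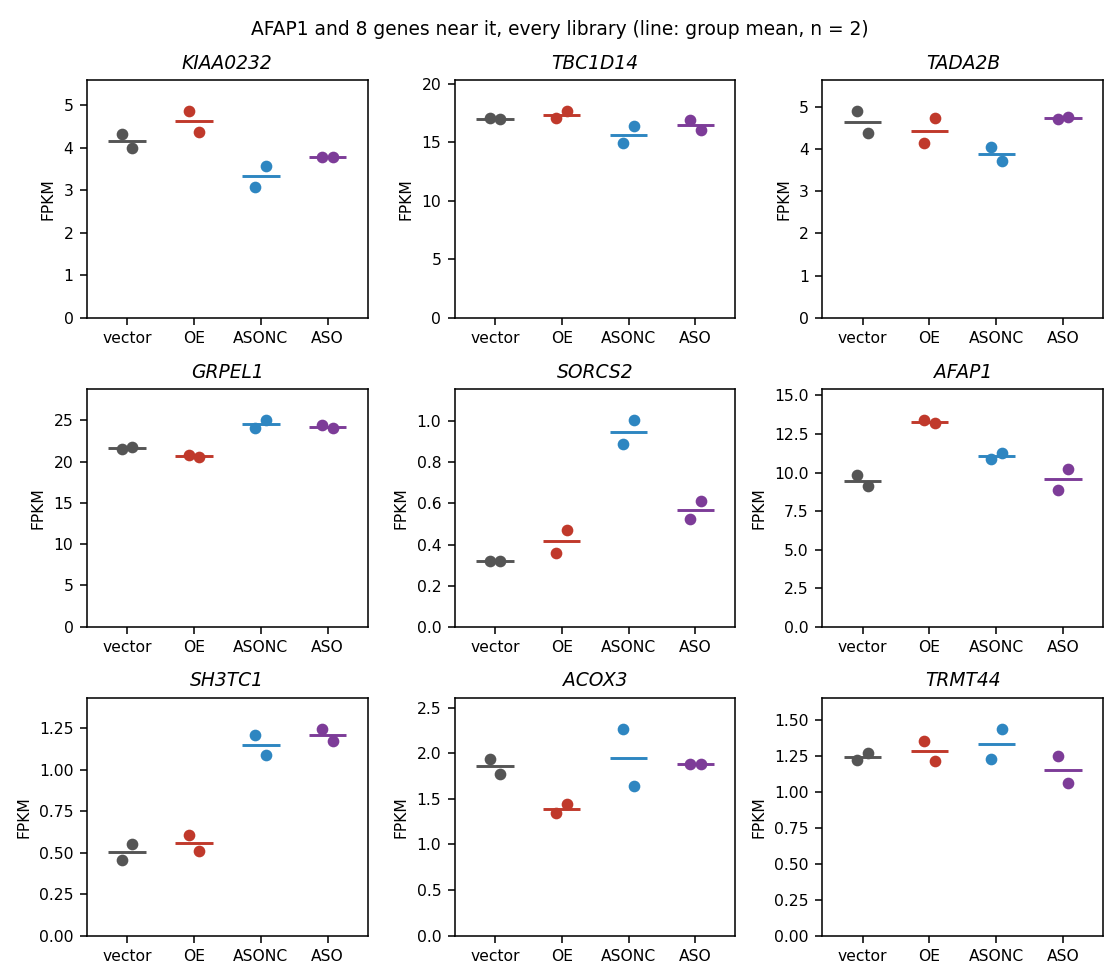
Level of AFAP1 and the 8 genes near it in FPKM (vertical axis, from 0, a separate scale for each gene), in chromosome order; points are single libraries and lines are group means (n = 2). AFAP1 was highest in the OE libraries (13.4 and 13.2), whereas SH3TC1 and SORCS2 were higher in ASONC and ASO than in vector.

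AFAP1 stood at 9.82 and 9.10 FPKM in the vector libraries, 13.4 and 13.2 in OE, 10.9 and 11.3 in ASONC, and 8.88 and 10.3 in ASO. The OE libraries were the highest, the ASONC libraries came next, and the vector and ASO libraries overlapped at the bottom. In group means ± SD (n = 2) that order was 13.3 ± 0.125 in OE, 11.1 ± 0.272 in ASONC, 9.57 ± 0.972 in ASO and 9.46 ± 0.506 in vector. The recovered reads behind these values were 2968 and 3005 in vector, 4337 and 4454 in OE, 3475 and 3719 in ASONC, and 2869 and 3272 in ASO.

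The comparison of OE with vector asks what accompanied a higher level of the antisense RNA. AFAP1 was 1.41 times as high in OE as in vector, with a log2 difference of 0.45 ± 0.07 (SE, 95% interval 0.30 to 0.61) on the log2(FPKM + 1) scale. With limma its adjusted p was 0.0542, just over the threshold, and it ranked 8 of 10648 genes by p. Only 7 genes, 0.0657% of those tested, were called in this comparison, and 0 of the 7 tested genes near or at AFAP1 were among them. At an unadjusted p under 0.05 there were 738 genes, 6.93% of those tested, with AFAP1 and ACOX3 as 2 of the 7. In the voom test of the reads AFAP1 rose in OE by 0.50 ± 0.06 (log2, adjusted p = 3.41e-07, rank 5), 1 of 29 genes called, or 0.22% of those tested. It was the sole call among the 9 genes there. Over 16 alternative settings the AFAP1 difference ran from 0.40 to 0.50, and it passed the threshold in 6. Without a filter on low genes its adjusted p was 0.406, a setting in which limma called 0 genes. Reads from the 523 exonic bases shared with AFAP1-AS1 cannot be assigned to either gene. Their part in this AFAP1 difference was not tested.

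The comparison of ASO with ASONC asks the same of a lower level of the antisense RNA. AFAP1 was 0.864 times as high in ASO as in ASONC, with a log2 difference of -0.20 ± 0.07 (95% interval -0.35 to -0.04, limma adjusted p = 0.0692). The 2 ASO libraries, at 8.88 and 10.3 FPKM, differed from each other by nearly as much as the group means did. Leaving out ASO replicate 1 gave -0.10 (adjusted p = 0.396) and leaving out ASO replicate 2 gave -0.29 (adjusted p = 0.0351). In the voom test AFAP1 fell by 0.22 in ASO (adjusted p = 0.00611). The part of the exonic bases shared with AFAP1-AS1 in this fall was not tested either. Here calls were common: 22.2% of the genes tested with limma and 24.4% with voom. The count over the genes at and near AFAP1 was 0 of 7 with limma (2 of 7, AFAP1 and TADA2B, at an unadjusted p under 0.05, as were 3776 genes or 35.5% of all tested), and with voom 3 of 9: AFAP1 and SORCS2 lower and TADA2B higher.

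The ASO libraries did not bring AFAP1 under its level in vector: the ASO mean was 1.01 times the vector mean, a log2 difference of 0.01 (95% interval -0.14 to 0.17). The ASONC libraries were the ones that differed from vector, by 0.21 ± 0.07 (limma adjusted p = 0.0207), 1.17 times the vector mean. This rise passed in 12 of 16 alternatives and was lost with median-of-ratios scaling (0.15, adjusted p = 0.0738), with no filter (adjusted p = 0.0539), and without vector replicate 2 (0.16) or ASONC replicate 2 (0.19). The comparisons of ASO with ASONC and of ASONC with vector share the ASONC libraries, which enter them with opposite signs.

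The AFAP1 difference in OE and that in ASO, which share no library, had opposite signs, and the gap between them was tested directly. It came to 0.65 ± 0.10 (log2, 95% interval 0.43 to 0.87, limma adjusted p = 0.00206, rank 188). It passed in 16 of 16 alternatives, with values from 0.56 to 0.74. No alternative left out reads from the exonic bases shared with AFAP1-AS1. Genes with such a gap were 10.2% of those tested with limma and 13.6% with voom, and AFAP1 was the sole call among the genes at and near it under each of these tests. The plot of AFAP1 under each setting shows the contrast between this value and the separate comparisons.

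**Figure D2:**
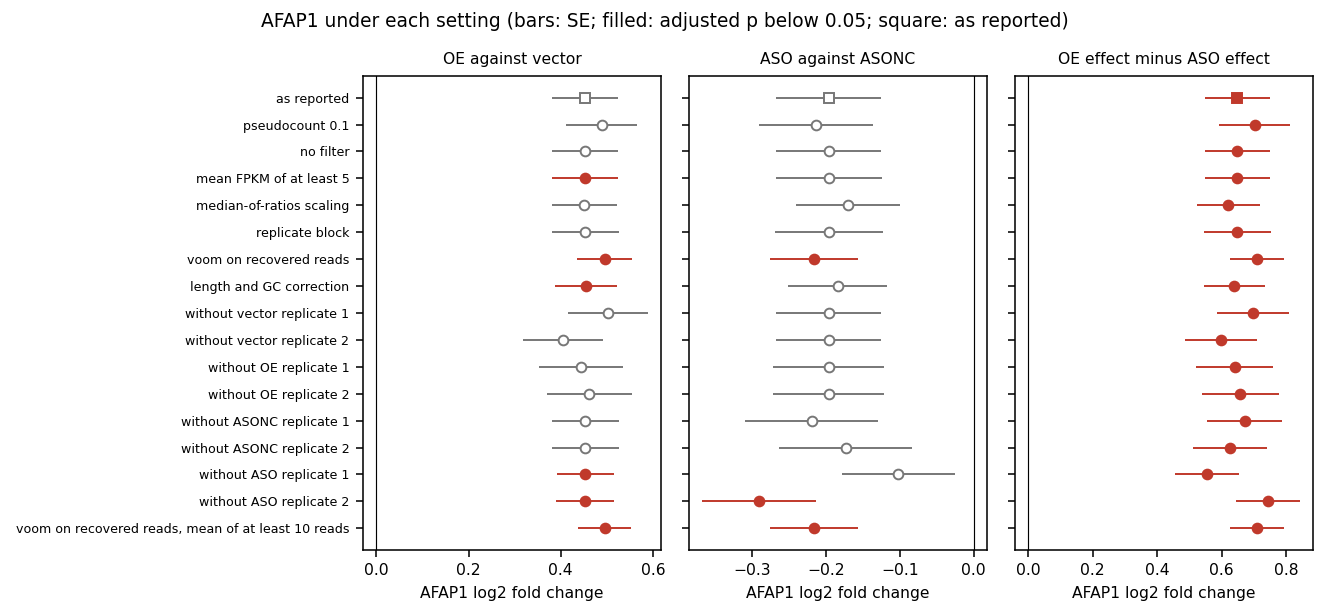
Log2 fold change of AFAP1 (horizontal axis) under each processing setting (vertical axis) for OE against vector, ASO against ASONC and the difference between them; bars are 1 SE, filled symbols an adjusted p below 0.05, and the square is the value as reported. The difference passed under every setting shown, and the ASO value moved most when an ASO library was left out (-0.29 to -0.10).

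The close relatives of AFAP1 had another order of groups. AFAP1L2, another adaptor of the family, averaged 8.07 FPKM in vector, 7.79 in OE, 10.4 in ASONC and 9.99 in ASO. AFAP1L1 averaged 1.23, 1.17, 2.19 and 2.30 in the same order. Both rose in ASONC against vector (0.32 and 0.52, limma adjusted p = 0.000864 and 0.000563), and both were slightly lower in OE than in vector without passing the test. Of 17 genes listed for SRC-family signalling, actin and focal adhesion, 16 could be tested. In OE against vector 0 of them were called, where 0.0657% of all genes were. In ASO against ASONC, with 22.2% of all genes called, 0 were higher and 6 lower, and the list median was -0.04 against 0.02 for all genes tested. These included VASP, an actin elongation factor (45.7 FPKM in ASONC and 37.9 in ASO, -0.26, adjusted p = 0.00254), FLNA, an actin crosslinker (318 and 277, -0.20, adjusted p = 0.00578), and PXN, a focal adhesion scaffold (36.3 and 31.0, -0.22, adjusted p = 0.00762). With the length and GC correction the counts were again 0 and 6, against 16.4% of all genes called. These 3 genes still passed (adjusted p = 0.027, 0.0116 and 0.0329). In ASONC against vector, with 68.6% of all genes called, 4 of the listed genes were higher and 9 lower. With the correction 7 were higher and 6 lower, against 59.5% of all genes.

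Over the 8 libraries the profiles most like that of AFAP1 on the log2(FPKM + 1) scale were those of ANKS1A (r = 0.876), PKD1 (0.859), ARAP1 (0.831), TRMO (0.827) and ACAD10 (0.827). The most opposite were RNF8 (-0.921), RPIA (-0.917), PPP1R21 (-0.917), P3H3 (-0.914) and GTF2F2 (-0.896). RNF8, for example, averaged 9.47 FPKM in vector, 7.57 in OE, 8.22 in ASONC and 8.86 in ASO. None of the neighbours was among them: r with AFAP1 ran from -0.679 for ACOX3 to 0.407 for KIAA0232 over the 6 tested neighbours. The libraries share groups of 2, so these values describe 8 points and carry no test.

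SH3TC1 encodes a protein with SH3 and tetratricopeptide repeat domains and lies 242.1 kb after AFAP1 at chr4:8182072-8241803 on the plus strand. It stood at 0.453 and 0.552 FPKM in vector, 0.603 and 0.512 in OE, 1.21 and 1.09 in ASONC, and 1.24 and 1.17 in ASO. The vector and OE libraries overlapped at the bottom, the ASONC and ASO libraries overlapped at the top, and no library of the lower pair reached the upper pair. In reads these were 96 and 128, 137 and 121, 271 and 252, and 282 and 263. With voom SH3TC1 rose in ASONC against vector by 1.19 ± 0.24 (log2, adjusted p = 3.4e-05) and in ASO against vector by 1.26 ± 0.24 (adjusted p = 1.49e-05). The groups were 2.29 and 2.41 times the vector mean, and the comparisons share the vector libraries. OE differed from vector by 0.14 (95% interval -0.41 to 0.69) and ASO from ASONC by 0.08 (-0.28 to 0.44), neither past the test. Both rises passed without each library in turn (1.05 to 1.34, and 1.13 to 1.41), and with a correction for length and GC content (0.998 and 1.18). Its GC content is 63.7%. Its paralog SH3TC2, a gene of Charcot-Marie-Tooth neuropathy type 4, did not pass 0.024 FPKM in any library. Of the listed genes of that neuropathy 7 of 10 could be tested, with 0 called in OE against vector, 0 higher and 1 lower in ASO against ASONC (PRX, a myelin protein, -0.37, adjusted p = 0.0206), and 2 higher and 3 lower in ASONC against vector, against 0.0657%, 22.2% and 68.6% of all genes. The PRX call was lost with the length and GC correction (-0.29, adjusted p = 0.0602).

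SORCS2 encodes a VPS10-domain sorting receptor that binds proneurotrophins. It spans chr4:7192538-7742836 on the plus strand and ends 15.9 kb short of the AFAP1 body. It stood at 0.319 and 0.318 FPKM in vector, 0.361 and 0.472 in OE, 0.891 and 1.01 in ASONC, and 0.524 and 0.610 in ASO. No groups overlapped, in the order vector, OE, ASO, ASONC. The reads were few: 57 and 62, 69 and 94, 168 and 196, and 100 and 115. With voom SORCS2 rose in ASONC against vector by 1.57 ± 0.32 (log2, adjusted p = 3.72e-05), 2.98 times the vector mean, and this held without each library in turn (1.48 to 1.65) and with the length and GC correction (1.28).

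SORCS2 fell by 0.74 ± 0.26 from ASONC to ASO (voom adjusted p = 0.0288), 0.598 times the ASONC mean, and was higher in ASO than in vector by 0.82 ± 0.34 (adjusted p = 0.039). The fall was lost with the length and GC correction (-0.64, adjusted p = 0.0632) and without ASONC replicate 2 (-0.65), ASO replicate 1 (-0.63) or ASO replicate 2 (-0.85). The difference from vector was lost with the same correction (0.63, adjusted p = 0.119) and without vector replicate 1 (0.83), vector replicate 2 (0.82) or ASO replicate 2 (0.71). OE against vector gave 0.38 (95% interval -0.36 to 1.11), which did not pass. Of 10 listed VPS10 and neurotrophin receptors and ligands 4 could be tested, and 0 were called in OE against vector or in ASO against ASONC (0.0657% and 22.2% of all genes). The related receptor SORL1 averaged 3.01 FPKM in vector and 1.99 in ASONC (-0.42, limma adjusted p = 0.000974). With the length and GC correction this call was lost in limma (-0.06, adjusted p = 0.542) and kept in voom (-0.23, adjusted p = 0.0334). SORT1 averaged 4.43 and 3.80 FPKM in those groups (limma adjusted p = 0.0644).

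**Figure D3:**
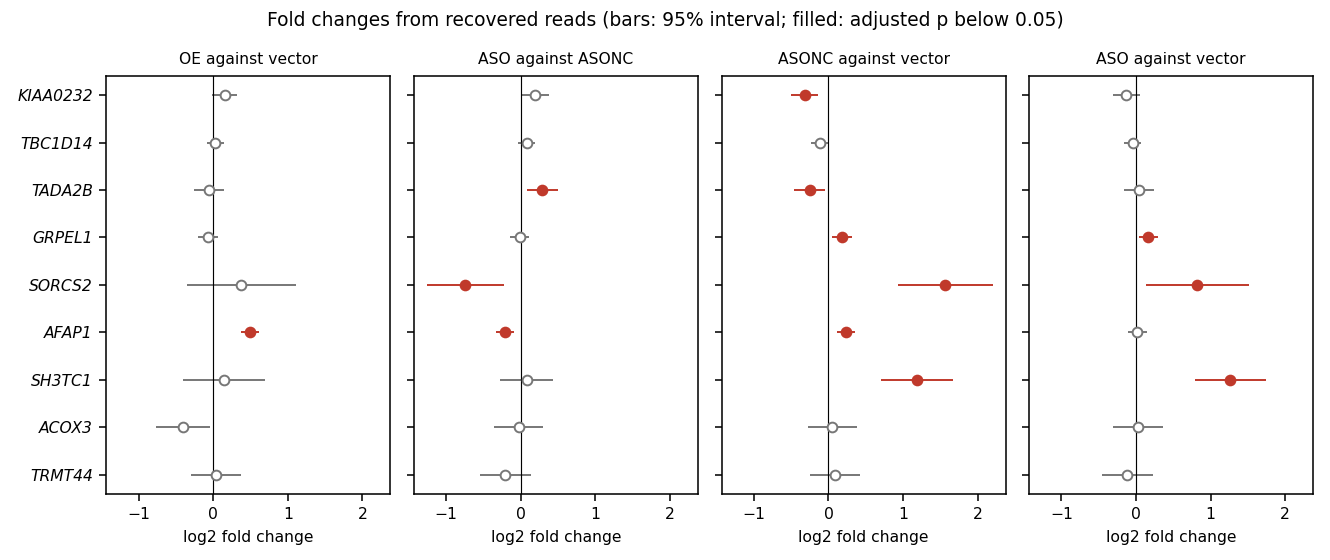
Log2 fold changes of the 9 genes (vertical axis, in chromosome order) in 4 comparisons, from limma's voom on recovered reads; bars are 95% intervals and filled symbols have an adjusted p below 0.05. AFAP1 was the filled symbol in OE against vector (0.50), and SH3TC1 (1.19) and SORCS2 (1.57) were farthest to the right in ASONC against vector.

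Calls between ASONC and vector were the rule rather than the exception: 68.6% of the genes tested with limma and 63.1% with voom were called. Among the genes at and near AFAP1 4 of 7 were called with limma (AFAP1 and GRPEL1 higher, KIAA0232 and TADA2B lower) and 6 of 9 with voom, which added SH3TC1 and SORCS2. Their median log2 difference was 0.04 with limma, as over all genes tested (0.04). For ASO against vector 62.9% of genes were called with limma and 55.7% with voom. Of the genes described here 1 of 7 (GRPEL1) and 3 of 9 (GRPEL1, SH3TC1 and SORCS2) were called, all higher. Set beside these shares, the ASONC counts were near them and the ASO counts under them, over only 7 or 9 genes. Whether the neighbourhood differs from other genes was not tested.

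ACOX3, a peroxisomal acyl-CoA oxidase of branched-chain fatty acids, and TRMT44, a tRNA methyltransferase, have RefSeq starts on either side of the gap printed above. Their GENCODE bodies overlap (chr4:8366282-8440723, minus strand, and chr4:8436140-8493531, plus strand), since that annotation begins TRMT44 within the ACOX3 body. ACOX3 stood at 1.94 and 1.77 FPKM in vector, 1.34 and 1.44 in OE, 2.26 and 1.64 in ASONC, and 1.88 and 1.88 in ASO. The OE libraries were the lowest and did not overlap with any other group, while the other 3 groups overlapped. OE was 0.749 times the vector mean, a log2 difference of -0.26 ± 0.11 that did not pass (95% interval -0.49 to -0.02, limma adjusted p = 0.658). The reads were 328 and 327 in vector and 243 and 271 in OE. TRMT44 stood at 1.22 and 1.27 FPKM in vector, 1.35 and 1.21 in OE, 1.22 and 1.43 in ASONC, and 1.24 and 1.06 in ASO. All of its groups overlapped with the next in order, and OE differed from vector by 0.02 (95% interval -0.19 to 0.24). Without strand, reads where ACOX3 and TRMT44 exons might meet cannot be told apart.

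Of 15 genes of peroxisomal beta-oxidation 0 were called in OE against vector, 3 were higher and 1 lower in ASO against ASONC, and 7 were higher and 2 lower in ASONC against vector. The shares called over all genes in these comparisons were 0.0657%, 22.2% and 68.6%, so the counts over both directions are near the background. With the length and GC correction 1 was higher and 1 lower in ASO against ASONC (16.4% of all genes). In ASONC against vector 8 were then higher and 0 lower (59.5% of all genes). HSD17B4, the bifunctional enzyme of the pathway, rose from 20.4 FPKM in ASONC to 26.3 in ASO (0.36, limma adjusted p = 0.000357). With the length and GC correction this was 0.22 (adjusted p = 0.0108). The peroxisomal transporter ABCD3 averaged 9.32 and 11.6 (0.29, adjusted p = 0.0128) and lost its call with the correction (0.15, adjusted p = 0.17). Of 20 tested genes of tRNA methylation 0 were called in OE against vector, and 1 was higher and 3 lower in ASO against ASONC. In ASONC against vector 4 were higher and 10 lower. The shares over all genes, without the correction, were again 0.0657%, 22.2% and 68.6%. The cytosine methyltransferase NSUN6 fell from 3.56 FPKM in ASONC to 2.42 in ASO (-0.41, adjusted p = 0.00558, and -0.48 with the correction, adjusted p = 0.00284).

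GRPEL1, the nucleotide exchange factor of mitochondrial HSP70 during protein import, lies at chr4:7058906-7068197 on the minus strand and was the highest of the 9 genes per length. It stood at 21.5 and 21.8 FPKM in vector, 20.8 and 20.5 in OE, 24.1 and 25.0 in ASONC, and 24.5 and 24.0 in ASO. OE was lowest, vector next, and ASONC and ASO overlapped at the top. The changes were small. GRPEL1 rose by 0.17 ± 0.05 in ASONC against vector (1.13 times, limma adjusted p = 0.00645) and by 0.16 ± 0.05 in ASO against vector (1.12 times, adjusted p = 0.0132). The first was lost with median-of-ratios scaling (0.11, adjusted p = 0.0507), the second without vector replicate 1 or ASO replicate 1 (adjusted p = 0.0617 and 0.0702). OE against vector gave -0.07 (95% interval -0.17 to 0.04). GRPEL2, its paralog, averaged 6.38 FPKM in vector, 4.85 in ASONC and 4.54 in ASO. It fell in ASO against vector (-0.41, adjusted p = 0.00029, and -0.29 with the length and GC correction, adjusted p = 0.00401). Its call in ASONC against vector (-0.33, adjusted p = 0.00108) was lost with that correction (-0.11, adjusted p = 0.196).

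Of 12 tested genes of mitochondrial presequence import 0 were called in OE against vector (0.0657% of all genes). In ASONC against vector 7 were higher and 2 lower, against 68.6% of all genes called, with a list median of 0.16 against 0.04. With the length and GC correction these were 4 higher and 2 lower, against 59.5% of all genes. In ASO against ASONC 0 were higher and 2 lower, a share under the 22.2% of all genes. TIMM44, which tethers HSP70 to the import channel, fell from 39.6 FPKM in ASONC to 33.3 in ASO (-0.24, adjusted p = 0.00623, and -0.17 with the correction, adjusted p = 0.0433). ROMO1 averaged 157 and 136 (-0.20, adjusted p = 0.0151), and with the correction its value turned to 0.05 (adjusted p = 0.476).

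TADA2B, an adaptor of the histone acetyltransferase module of the SAGA complex, lies at chr4:7041899-7057952 on the plus strand in GENCODE. There the minus-strand gene CCDC96, which ends at 7042939, crosses its start, while the RefSeq start of TADA2B is at 7043372. Without strand, reads where exons of these genes might meet cannot be told apart. TADA2B stood at 4.90 and 4.38 FPKM in vector, 4.13 and 4.75 in OE, 4.05 and 3.72 in ASONC, and 4.73 and 4.76 in ASO. The ASONC libraries were the lowest and overlapped with no other group, and the rest overlapped. TADA2B fell in ASONC against vector by 0.20 ± 0.08 (0.839 times, limma adjusted p = 0.0463). This call was lost in 7 of 15 alternatives, among them leaving out vector replicate 1 (-0.14) or ASONC replicate 2 (-0.16). From ASONC to ASO it went up by 0.23 ± 0.08 (1.22 times), which missed the limma test (adjusted p = 0.0665). This rise passed in 4 of 15 alternatives, among them voom (0.29, adjusted p = 0.0332) and limma with the length and GC correction (0.265, adjusted p = 0.0476). With that correction TADA2B gave -0.282 in ASONC against vector (limma adjusted p = 0.011). Its paralog TADA2A, of the ATAC complex, averaged 5.14 FPKM in vector and 4.03 in ASONC (-0.29, adjusted p = 0.00641), a call lost with the length and GC correction (-0.12, adjusted p = 0.195). Of 20 tested SAGA genes 7 were higher and 12 lower in ASONC against vector, against 68.6% of all genes called, with a list median of -0.21 against 0.04. With the correction 5 were higher and 9 lower (59.5% of all genes) and the median was -0.15. In OE against vector 0 were called (0.0657% of all genes). In ASO against ASONC 0 were higher and 3 lower, under the 22.2% of all genes, and the list median was 0.04. The histone-fold subunit TAF10 was lower there (-0.22, adjusted p = 0.019) and passed with the correction (adjusted p = 0.0316). TAF12 (-0.27) and the histone reader SGF29 (-0.21) lost their calls with it (adjusted p = 0.0773 and 0.382).

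TBC1D14, which binds RAB11 and restrains the delivery of recycling membrane to autophagosomes, lies at chr4:6909242-7033118 on the plus strand. It stood at 17.1 and 17.0 FPKM in vector, 17.0 and 17.7 in OE, 14.9 and 16.4 in ASONC, and 16.9 and 16.1 in ASO. The ASONC and ASO libraries overlapped below the vector and OE libraries. The ASONC mean was 0.921 times that of vector, a log2 difference of -0.11 ± 0.06 (limma adjusted p = 0.104), which passed in 3 of 16 alternatives, among them median-of-ratios scaling (-0.17, adjusted p = 0.0203). OE gave 0.03 (95% interval -0.10 to 0.16). Of 13 genes of autophagy initiation and RAB11 recycling 0 were called in OE against vector, 4 were higher and 2 lower in ASO against ASONC, and 6 were higher and 3 lower in ASONC against vector, against 0.0657%, 22.2% and 68.6% of all genes. With the length and GC correction the counts in ASO against ASONC were 1 higher and 0 lower (16.4% of all genes). The transferrin receptor TFRC, cargo of the recycling route, averaged 72.9 FPKM in vector, 43.0 in ASONC and 49.6 in ASO. Its difference between ASO and ASONC (0.20, adjusted p = 0.00593) did not pass with the correction (0.10, adjusted p = 0.11). The ULK1 complex subunit ATG101 averaged 66.6 in ASONC and 58.4 in ASO (-0.19, adjusted p = 0.007), also lost with the correction (-0.09, adjusted p = 0.148).

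KIAA0232, at chr4:6781375-6884170 on the plus strand, is the gene farthest from AFAP1 in the set, at 874.5 kb. It stood at 4.31 and 3.98 FPKM in vector, 4.85 and 4.38 in OE, 3.08 and 3.56 in ASONC, and 3.77 and 3.79 in ASO. No groups overlapped, in the order ASONC, ASO, vector, OE. It fell in ASONC against vector by 0.25 ± 0.08 (0.801 times, limma adjusted p = 0.0179). With the correction for length and GC content this value turned to 0.09 (adjusted p = 0.391). KIAA0232 has the lowest GC content of the genes within 1 Mb of AFAP1, 42.2%. The fall was also lost without vector replicate 1 (-0.21, adjusted p = 0.106) or ASONC replicate 1 (-0.18, adjusted p = 0.143). OE against vector gave 0.13 (95% interval -0.06 to 0.31) and ASO against ASONC 0.15 (-0.04 to 0.33), neither past the test.

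The window from 1 Mb before to 1 Mb after AFAP1 holds 16 protein-coding genes, all in the table, of which 7 are not among the 9. Most of these 7 had few reads. CCDC96, a coiled-coil protein, had 78 and 144 reads in vector, 165 and 174 in OE, 134 and 162 in ASONC, and 118 and 150 in ASO, and was not called in any comparison. HTRA3, a secreted serine protease, had 0 and 0, 1 and 2, 27 and 36, and 2 and 11 reads in the same order. On these few reads limma with no filter called it in ASONC against vector (0.33, adjusted p = 0.00103) and in ASO against ASONC (-0.255, adjusted p = 0.0139). It was not called in OE against vector. PSAPL1 had between 5 and 18 reads in every library, GPR78 at most 1 and CPZ at most 4. HMX1, a homeobox factor, had 23 and 8 reads in vector, 1 and 12 in OE, 31 and 41 in ASONC, and 53 and 52 in ASO. It rose in ASO against vector with voom (1.91 ± 0.62, adjusted p = 0.0079) and was not called in OE. With the length and GC correction the ASO value was 1.31 (adjusted p = 0.0642), for a gene of 73.4% GC.

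**Figure D4:**
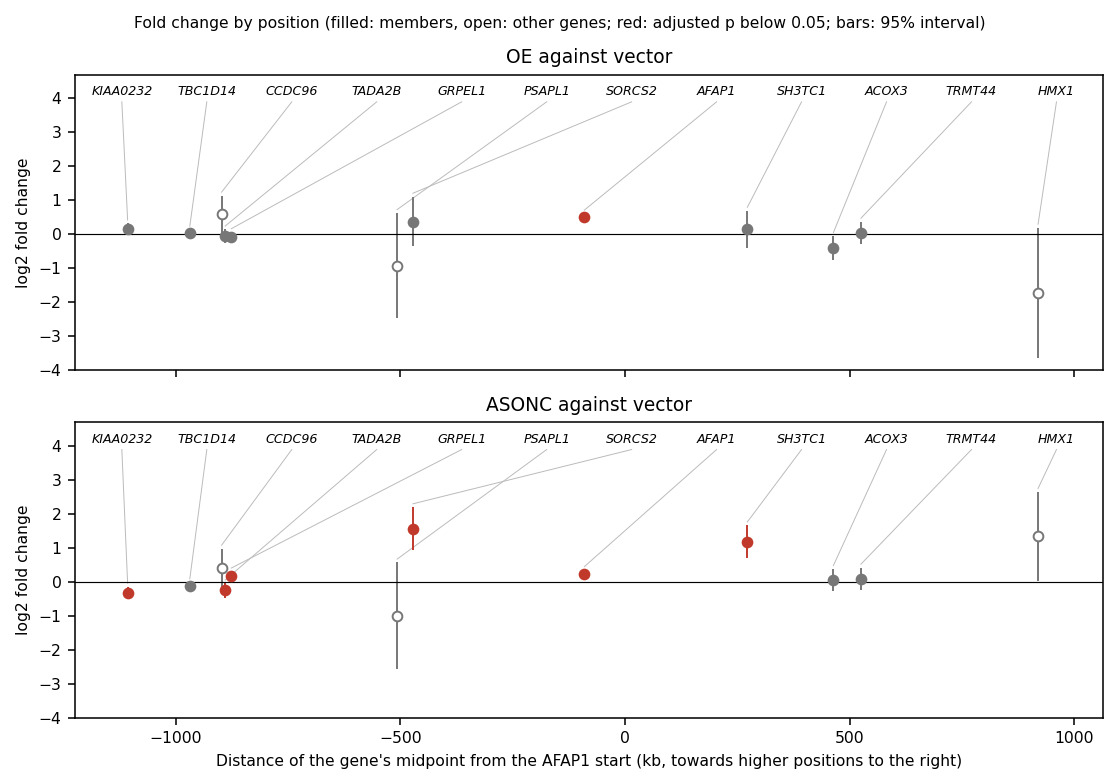
Log2 fold change (vertical axis) of the 9 genes and of CCDC96, PSAPL1 and HMX1, by the distance of the gene's midpoint from the AFAP1 start in kb (horizontal axis), for OE and for ASONC against vector, from limma's voom on recovered reads. Filled symbols are the 9 genes, open symbols the others, red an adjusted p below 0.05, and bars 95% intervals; AFAP1 was the sole red symbol in OE (0.50), whereas 6 were red in ASONC.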

How the data were processed

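Expression was measured by RNA-seq in 8 A549 libraries, 2 in each of 4 groups named by the sample labels. The authors deposited FPKM values per gene symbol, per the file headers. The submitters' processing notes give the build hg38 (GRCh38), and list R 3.2.0, HTSeq, featureCounts and HISAT2 with no roles. No source used here gives the annotation or the strand setting. FPKM divides by a library's total, so large changes elsewhere shift every value.

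Genes were tested with limma 3.58.1 under R 4.3.3 (trend, two-sided) on log2(FPKM + 1) where the mean FPKM was 1 or more, with all 4 groups in 1 fit (4 residual degrees of freedom). Benjamini-Hochberg adjustment ran over all genes tested, and genes were called below 0.05. The scale understates changes of low genes. With 2 libraries a group, no exact permutation test could pass. Whole reads were recovered from the FPKM steps: for all 17056 genes every value came out whole within 0.02 reads, and totals followed relative depth within 0.021%. Voom on these reads was the count test. Gene positions, length and GC content came from GENCODE 29, matched for 99.8% of tested genes. Scripts were tested on simulated data.

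The genes named are the 9, other genes within 1 Mb, listed paralogs, up to 3 genes per partner list with the smallest p in ASO against ASONC, and the 5 profiles most like and 5 most unlike AFAP1. The genes and lists were chosen with earlier results of these data known. Some genes that this rule names are not reported here. The alternatives were another pseudocount (0.1), filter, scaling, unit, a length and GC correction, a replicate block and leaving out each library.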

Additional observations from a re-analysis of the deposited data

Results flagged for a closer look

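The AFAP1 difference in OE (against vector) and that in ASO (against ASONC) went in opposite directions. Neither passed limma by itself (adjusted p = 0.0542 in OE and 0.0692 in ASO). The test of the gap between them passed: 0.65 on the log2(FPKM + 1) scale (SE 0.10, limma adjusted p = 0.00206). Such a gap was called for 10.2% of all genes tested, and a passing gap does not show that each difference is present. AFAP1 was higher in 2 of 2 OE libraries than in either vector library and lower in 2 of 2 ASO libraries than in either ASONC library. The share of all genes whose libraries separate in this way was not counted, so this is a description only. The ASO libraries overlapped with the vector libraries. What reads from the 523 exonic bases shared with AFAP1-AS1 added to these AFAP1 values was not tested.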

How the results depend on the processing

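Among single-gene values under other settings, 565 kept their direction and side of the threshold, 17 newly passed, 24 no longer passed and 34 changed sign, nearly all of the last from values near 0. Voom with a minimum of 10 reads, its left-out libraries and its length and GC correction were chosen after seeing the data. The 0 calls among the genes at and near AFAP1 in OE against vector became 1 (AFAP1) with a minimum of 5 FPKM, voom, length and GC correction, or voom with 10 reads. Calls over all genes there (7) became 0 with no filter, 11 with the 5 FPKM minimum, 27 with voom and 29 with 10 reads. In ASO against ASONC the 0 calls became 1 with no filter, 1 with median-of-ratios scaling, 1 with length and GC correction, 2 with voom and 3 with 10 reads. The 4 calls in ASONC against vector became 2 with the 5 FPKM minimum, which leaves TADA2B and KIAA0232 untested. The 1 call in ASO against vector became 3 with no filter and 3 with 10 reads, settings that also test SH3TC1 and SORCS2. For the gap between the OE and ASO effects the 1 call became 2 with no filter (SORCS2, 0.42). Its 1087 calls over all genes became 1701 with voom, 1788 with 10 reads and 717 with the correction. Except where genes left or entered the test, the cause was not tested.

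Median-of-ratios scaling divided the ASONC libraries by the largest factors (0.042 and 0.047 log2, against -0.021 to 0.018 in the others), which lowered their values. With it values changed sign for GRPEL1 in ASO against ASONC (0.009) and ACOX3 in ASONC against vector (-0.001). In ASO against vector they changed sign for AFAP1 (-0.019), ACOX3 (-0.008) and TADA2B (-0.000442). With the length and GC correction they did for ACOX3 in ASO against ASONC (0.034), ASONC against vector (-0.174) and ASO against vector (-0.14). KIAA0232 turned to 0.086 in ASONC against vector, 0.136 in ASO against vector and 0.088 in the gap, TADA2B to -0.017 in ASO against vector, and SH3TC1 (voom) to -0.06 in the gap.

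Without each library in turn, where a lone library is taken to vary like the other groups, calls among the genes at and near AFAP1 ran from 0 to 1 in OE against vector, from 0 to 1 in ASO against ASONC, from 2 to 4 in ASONC against vector and from 0 to 1 in ASO against vector. Calls over all genes ran from 6 to 12 in OE against vector (12 without vector replicate 2), from 1176 to 2315 in ASO against ASONC (1176 without ASO replicate 2, 1494 without ASO replicate 1, 1323 without ASONC replicate 2) and from 609 to 823 in the gap. Signs changed within these ranges: in OE against vector TRMT44 -0.02 to 0.067 and TADA2B -0.133 to 0.029. In ASO against ASONC they were ACOX3 -0.179 to 0.129, GRPEL1 -0.043 to 0.009 and SH3TC1 (voom) -0.000766 to 0.152. In ASONC against vector they were ACOX3 -0.114 to 0.193 and TRMT44 -0.013 to 0.118. In ASO against vector they were AFAP1 -0.081 to 0.107, ACOX3 -0.028 to 0.057, TRMT44 -0.125 to 0.000677 and TADA2B -0.039 to 0.095. In the gap they were TBC1D14 -0.111 to 0.02, KIAA0232 -0.103 to 0.056 and SH3TC1 (voom) -0.071 to 0.215, with -0.05 without OE replicate 1 and -0.01 without ASONC replicate 1.

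Same-numbered libraries did not deviate together (r between groups from -0.061 to 0.062 across genes), so the numbers were not taken as pairs. With a replicate block the AFAP1 values were as reported (0.453 in OE, adjusted p = 0.0579, and -0.196 in ASO, adjusted p = 0.0789). Among the 9 genes TADA2B in ASONC against vector lost its call (adjusted p = 0.0568), and 8 genes were called in OE over the table. Depth limited SORCS2 and SH3TC1 most, with 57 to 282 reads per library.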
